A study of Mus musculus with 16 samples.

Results

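The matrix metalloproteinases (Mmp), the membrane-anchored ADAMs, the secreted ADAMTS enzymes with their ADAMTS-like relatives and the tissue inhibitors of metalloproteinases (Timp) were followed in sorted mouse liver cells. The members were all genes whose name in the array files begins with Mmp, Timp, Adam, Adamts or Adamtsl followed by a digit. This gave 77 genes, of which 72 were well above background in at least a share of 0.5 of the samples of at least 1 group and were kept, out of 24127 kept genes among 28034 names on the array. The 5 that were not kept were Adam39, Mmp10, Mmp12, Mmp13 and Mmp20.

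RNA was profiled on 16 one-colour arrays from 14 samples, which the series design gives as biological replicates, with 1 repeat array in each of 2 samples. Cells of c129/S3 mice were separated by the MIC1-1C3 antigen (M) and CD133. The groups were M+133+ cells from livers of mice fed 0.1% (w/w) DDC for 2 weeks (n = 4), M+133+ cells from untreated livers (n = 4), M-133- cells from livers of DDC-fed mice (n = 4) and M-133- cells from untreated livers (n = 2). DDC is a porphyrinogenic compound that causes bile duct injury and a ductular reaction. The labels give no age and do not say whether a sample pools several animals.

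MMPs are zinc enzymes that cut collagens, proteoglycans and other matrix proteins, and ADAMs are membrane proteins of which several release the outer part of growth factors and receptors. ADAMTS enzymes cut proteoglycans, procollagens and von Willebrand factor, ADAMTS-like proteins lack the protease part, and TIMPs bind and block the active site of these enzymes. In injured liver, stellate cells and portal fibroblasts are known sources of matrix-remodelling MMPs and of TIMP1, and matrilysin (Mmp7) is known from glandular and ductal epithelia.

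Several MMP genes lie side by side on mouse chromosome 9. In the files (build mm9) the probes of Mmp13, Mmp12, Mmp3, Mmp1a, Mmp10, Mmp8, Mmp20 and Mmp7 follow one another between positions 7282762 and 7697700. The motif bound by AP-1 (TGAGTCA, or TGACTCA on the other strand) was looked for in the RefSeq promoters of assembly GRCm38.p6, which reach from 250 bases before to 50 bases after the start. A promoter was given for 47 of the 77 members, and 9 of the 47 (19.1%) held the motif, against 5.95% of all 27025 genes with a promoter. The 9 were Mmp1a, Mmp3, Mmp7, Mmp10, Mmp12, Mmp13, Adam1b, Adam19 and Adam29. The promoters of Mmp7 (chr9:7691840-7692139), Mmp3 (chr9:7445572-7445871) and Adam19 (chr11:46055734-46056033), all on the plus strand, are printed here with the motif in capitals. They are shown because the same motif stood before a gene that was higher in M+133+ cells (Mmp7) and before genes that were lower there (Mmp3 and Adam19). The motif began at base -63 in Mmp7, -46 in Mmp3 and -131 in Adam19, counted from the start, and a match describes the sequence only.
Mmp7: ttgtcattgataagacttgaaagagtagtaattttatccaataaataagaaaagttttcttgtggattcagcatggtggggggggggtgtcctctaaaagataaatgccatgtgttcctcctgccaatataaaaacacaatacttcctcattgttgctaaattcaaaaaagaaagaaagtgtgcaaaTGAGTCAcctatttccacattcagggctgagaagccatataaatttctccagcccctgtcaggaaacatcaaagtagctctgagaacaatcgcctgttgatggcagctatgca
Mmp3: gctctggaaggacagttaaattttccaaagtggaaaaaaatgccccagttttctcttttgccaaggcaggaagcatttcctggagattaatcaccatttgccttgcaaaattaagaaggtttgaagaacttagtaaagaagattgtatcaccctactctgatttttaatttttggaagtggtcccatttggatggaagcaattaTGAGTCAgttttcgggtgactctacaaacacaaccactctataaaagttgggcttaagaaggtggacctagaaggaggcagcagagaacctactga
Adam19: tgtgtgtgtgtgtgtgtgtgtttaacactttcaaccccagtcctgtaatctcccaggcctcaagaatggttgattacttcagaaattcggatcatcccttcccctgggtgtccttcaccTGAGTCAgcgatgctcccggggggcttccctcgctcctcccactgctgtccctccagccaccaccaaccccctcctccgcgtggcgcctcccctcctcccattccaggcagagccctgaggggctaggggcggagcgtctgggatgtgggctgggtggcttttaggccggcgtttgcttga

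Levels are log2 signals minus the 75th percentile of their array, so 0 is that percentile, and differences are on the same log2 scale. The 75th percentile ran from 581.6 to 2680.9 intensity units over the arrays, and the share of probes well above background from 59.7% to 77%. The dimmest arrays, at 581.6 and 676.8, were of untreated M-133- samples 1 and 2, and the other array of sample 2 read 1996.9. Arrays of untreated M+133+ cells read 1659 to 2680.9, and those of M-133- DDC cells 1354.9 to 2002.2. The part of array brightness in the differences was not tested. Prom1, the gene of CD133, lay between 0.85 and 2.27 in the 8 M+133+ samples and between -8.52 and -3.44 in the 6 M-133- samples, of which M-133- DDC sample 2 alone had it well above background. The mean level of 8 bile duct markers ran from 3.63 to 5.36 over M+133+ samples and from -3.95 to -0.7 over M-133- samples. Means of 8 hepatocyte markers ran from -1.96 to 2.09 in M+133+ and from 4.36 to 5.53 in M-133- samples, and those of 8 endothelial markers from -4.56 to -0.42 and from 0.35 to 4.39. Means of 9 stellate cell and fibroblast markers were -4.76 to -0.42 in M+133+ DDC, -3.95 to -1.87 in M+133+ untreated, 3.5 to 4.76 in M-133- DDC and 1.23 to 1.57 in M-133- untreated samples. From 6 to 9 of these 9 markers were still well above background in each M+133+ sample. M+133+ DDC sample 1 was the highest of its sort, with Dcn, the decorin of fibroblasts, at 1.71, against -6.89 to -5.07 in the other samples of its group. M-133- samples thus hold markers of several cell types, and fewer cells of a type cannot be told apart from less RNA per cell.

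**Figure D1:**
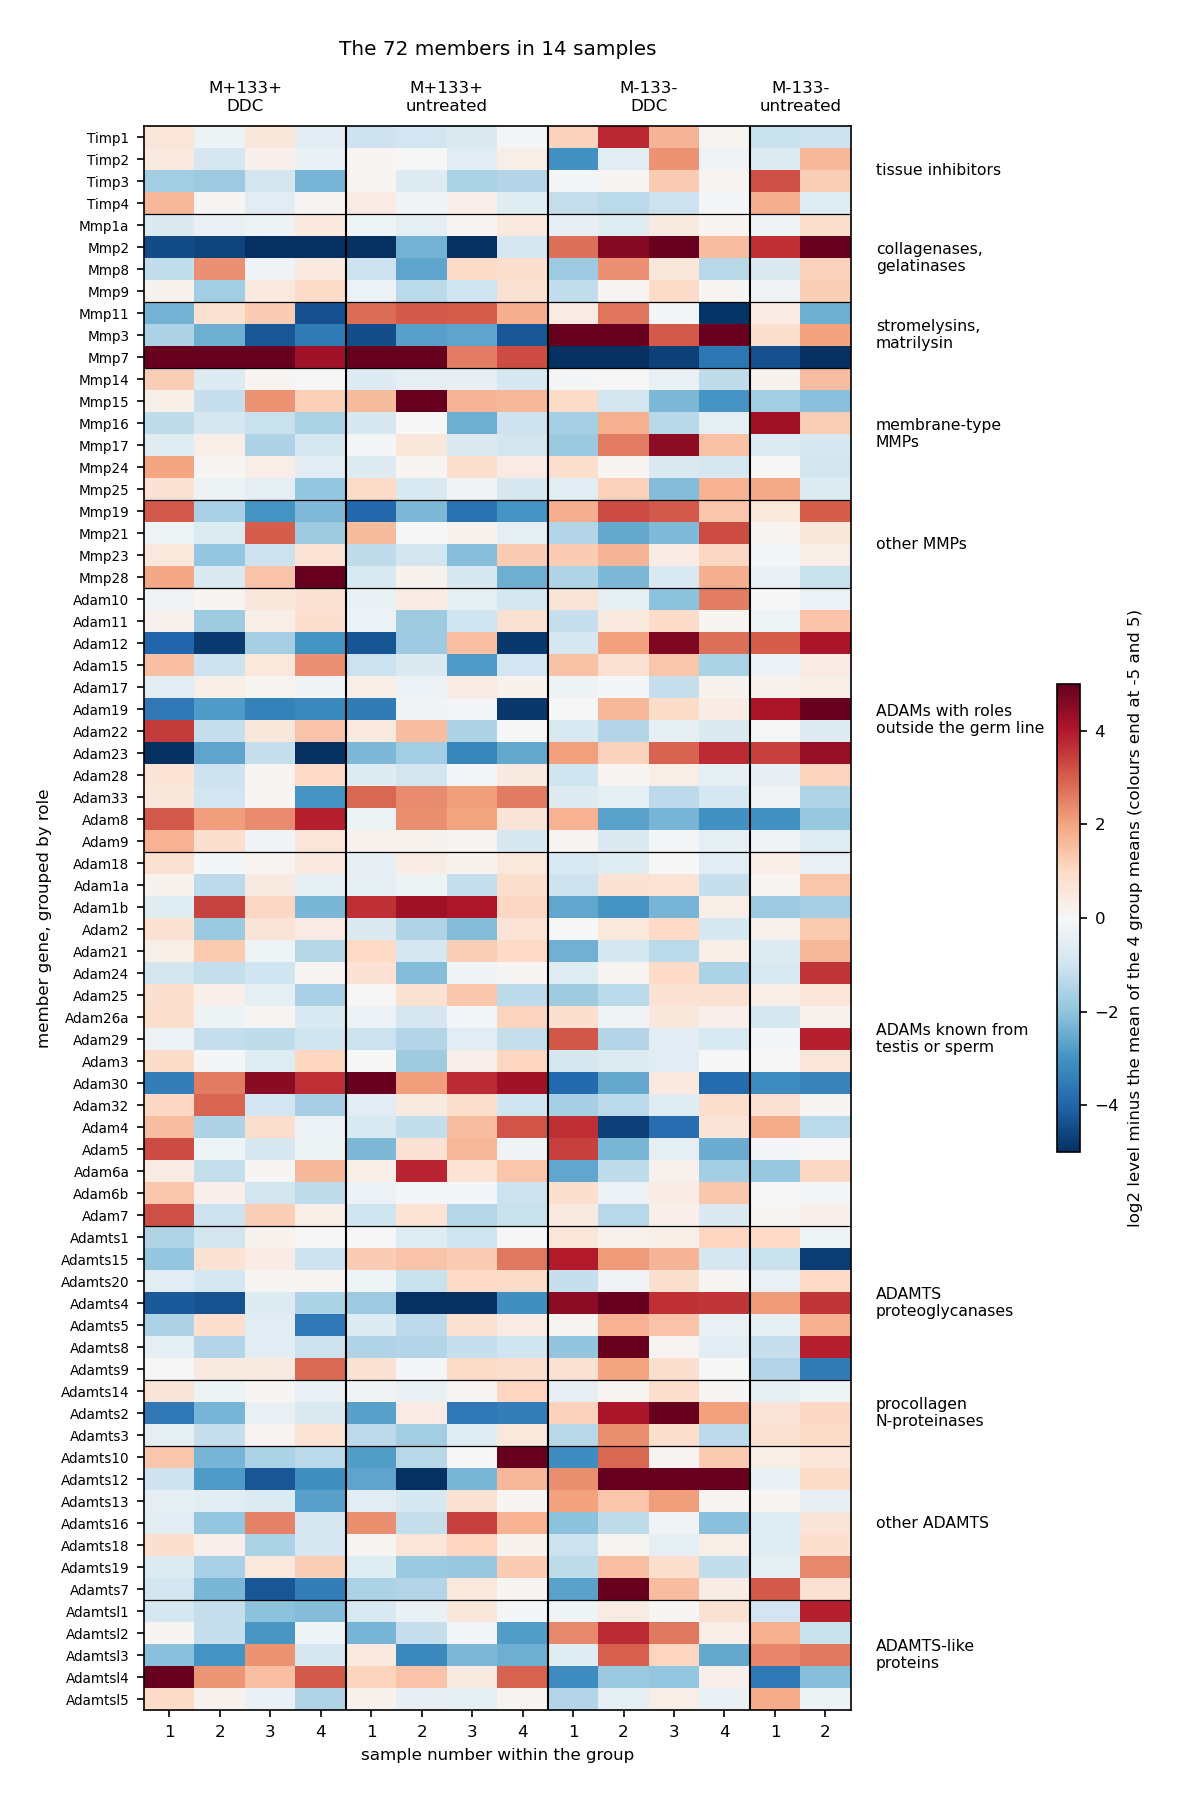
Heat map of the 72 kept members (rows, grouped by role) in the 14 samples (columns, by group). Colour gives the log2 level minus the mean of the gene's 4 group means; Mmp7 is above its mean in all 8 M+133+ samples, and Mmp2, Mmp3 and Adamts4 are above theirs in all 6 M-133- samples.

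In untreated livers, 17 of the 72 members differed between M+133+ and M-133- cells, 8 higher and 9 lower (limma on all samples, adjusted p under 0.05 over all genes). That is 23.6% of the members, against 8.61% of all genes tested, of which 3.42% were higher and 5.19% lower. The epithelial matrilysin Mmp7 led the higher members, with Adam30, Adam1b, Adamts15, Mmp15, Adamtsl4, Adam33 and Adamts9. The gelatinase Mmp2 led the lower ones, with Adamts4, Adam19, Adam23, Adam12, Mmp19, Mmp3, Mmp16 and the inhibitor Timp3. Of the 17, Mmp16 was kept only through the group in which it was high, and 16 (22.2% of the members) were called without it. The median difference was -0.52 over the members and -0.12 over all genes. With quantile normalization these were -0.52 and -0.03, and with normexp background correction -0.92 and -0.58.

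After DDC, 14 members differed between the sorts, 3 higher and 11 lower in M+133+ cells. That is 19.4% of the members, against 12.3% of all genes, of which 5.89% were higher and 6.41% lower. Mmp7, Adamtsl4 and Adam8 were higher, and Mmp2, Mmp3, Adamts12, Adamts4, Adam23, Adam12, Adamts2, Adam19, Adamtsl2, Adamts13 and Timp3 were lower. The median difference was -0.10 over the members and 0.26 over all genes. With quantile normalization these were -0.79 and -0.05, with 24 of the 72 members higher in place of 32, and with normexp background correction 0.01 and 0.2.

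The sort comparisons before and after DDC share no sample. They come from 1 fit with a common estimate of the spread, however, so their calls are not independent. In both, 9 members were called, each in the same direction. Mmp7 and Adamtsl4 were higher, and Mmp2, Mmp3, Adam12, Adam19, Adam23, Adamts4 and Timp3 were lower. They are 52.9% of the members called in untreated livers and 64.3% of those called after DDC, where over all genes 58% and 40.6% were shared. Across the 72 members the differences before and after DDC had a Pearson r of 0.79, and across all 24127 genes 0.62. Genes are not independent replicates, and the samples of a sort share its mix of cells.

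**Figure D2:**
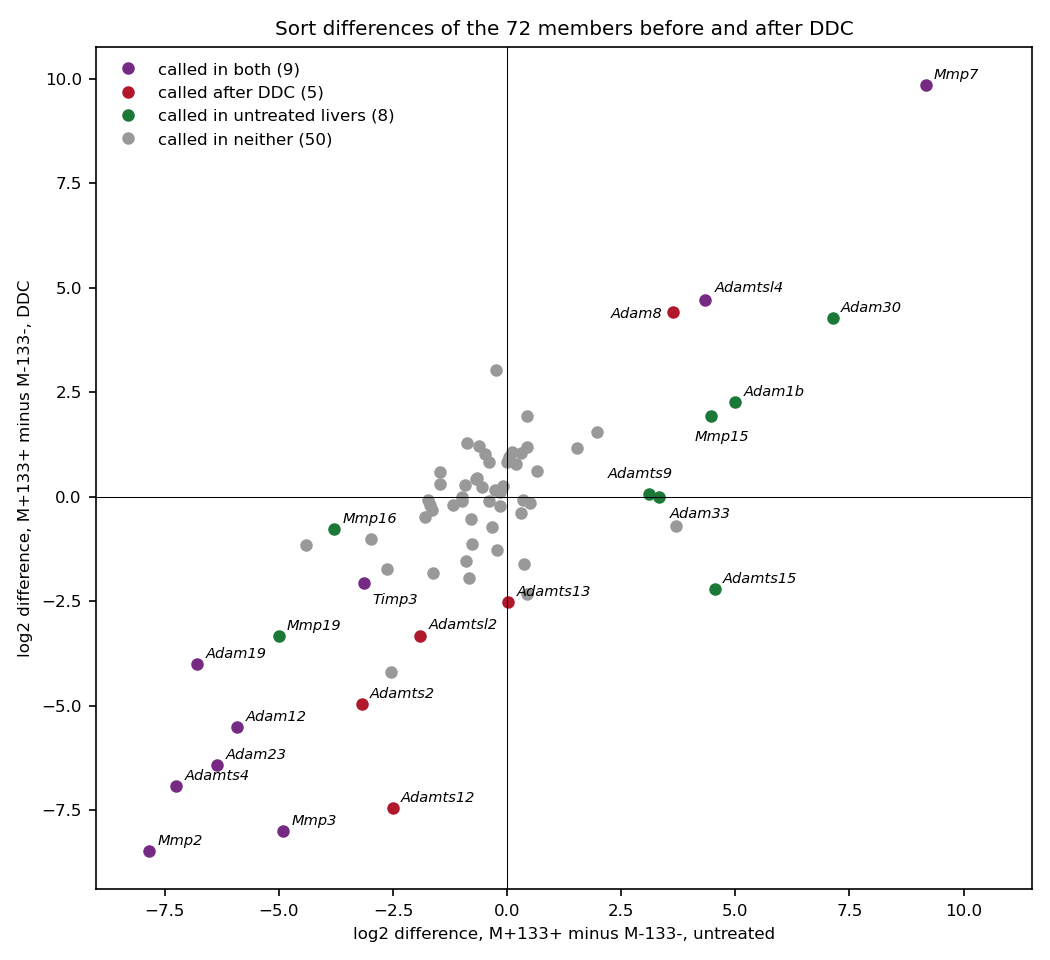
Log2 difference of M+133+ minus M-133- cells for the 72 members, in untreated livers (horizontal) and after DDC (vertical), coloured by the comparison in which a member was called. The 9 members called in both lie in the upper right or lower left of the plot, with Mmp7 at 9.17 and 9.85 at one end and Mmp2 at -7.85 and -8.47 at the other.

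Mmp7, which cuts matrix proteins and activates defensins in mouse gut, separated the sorts most among the members (probe on chromosome 9, mm9, 7697641 to 7697700). After DDC its level was 2.64, 2.03, 1.82 and 1.03 in the M+133+ samples and -8.35, -8.96, -7.82 and -6.75 in the M-133- samples. In untreated livers it was 2.05, 3.68, -0.58 and 0.1 in the M+133+ samples and -7.55 and -8.16 in the M-133- samples. The groups did not overlap, and Mmp7 was not well above background on any array of M-133- cells. It was therefore at least 298-fold higher in M+133+ cells after DDC (log2 difference 9.85, SE 0.88, adjusted p = 6.41e-06) and at least 150-fold higher in untreated livers (9.17, SE 1.07, adjusted p = 0.000136). After DDC 7 and in untreated livers all 8 of 8 bile duct markers were also higher in M+133+ cells, and their part in the difference was not tested.

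Mmp2, gelatinase A, a product of stellate cells and fibroblasts, ran the other way (probe on chromosome 8, mm9, 95376840 to 95376899). After DDC it read -8.06, -8.22, -8.64 and -8.75 in M+133+ cells, on no array well above background, and -0.85, 0.94, 2.18 and -2.07 in M-133- cells. In untreated livers it read -8.61, -5.96, -8.73 and -4.43 in M+133+ cells and 0.04 and 1.79 in M-133- cells, and neither pair of groups overlapped. Mmp2 was at least 87.1-fold lower in M+133+ cells after DDC (log2 difference -8.47, SE 1.06, adjusted p = 0.000102) and was lower in untreated livers as well (-7.85, SE 1.3, adjusted p = 0.00166). Of the untreated M+133+ samples, 2 and 4 had Mmp2 well above background, and they also had the highest means of the 9 stellate cell and fibroblast markers in their group (-1.87 and -2.88, against -3.95 and -3.88). M+133+ DDC sample 1, where that mean was -0.42, had no Mmp2 signal well above background.

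Mmp3, stromelysin 1, which cuts proteoglycans and activates other MMPs, was at -4.67, -5.58, -7.42 and -6.64 in M+133+ and at 2.21, 3.66, -0.06 and 1.82 in M-133- cells after DDC. Untreated levels were -7.58, -5.84, -5.78 and -7.42 in M+133+ and -2.34 and -1.14 in M-133- cells. Every M-133- sample lay above every M+133+ sample, with a log2 difference after DDC of -7.99 (SE 0.88, adjusted p = 3.32e-05) and in untreated livers of -4.92 (SE 1.07, adjusted p = 0.00979). Mmp7 and Mmp3, both of the chromosome 9 row, thus differed between the sorts in opposite directions. Of the other kept genes of the row, Mmp1a, a collagenase, and Mmp8, the neutrophil collagenase, passed in neither comparison.

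**Figure D3:**
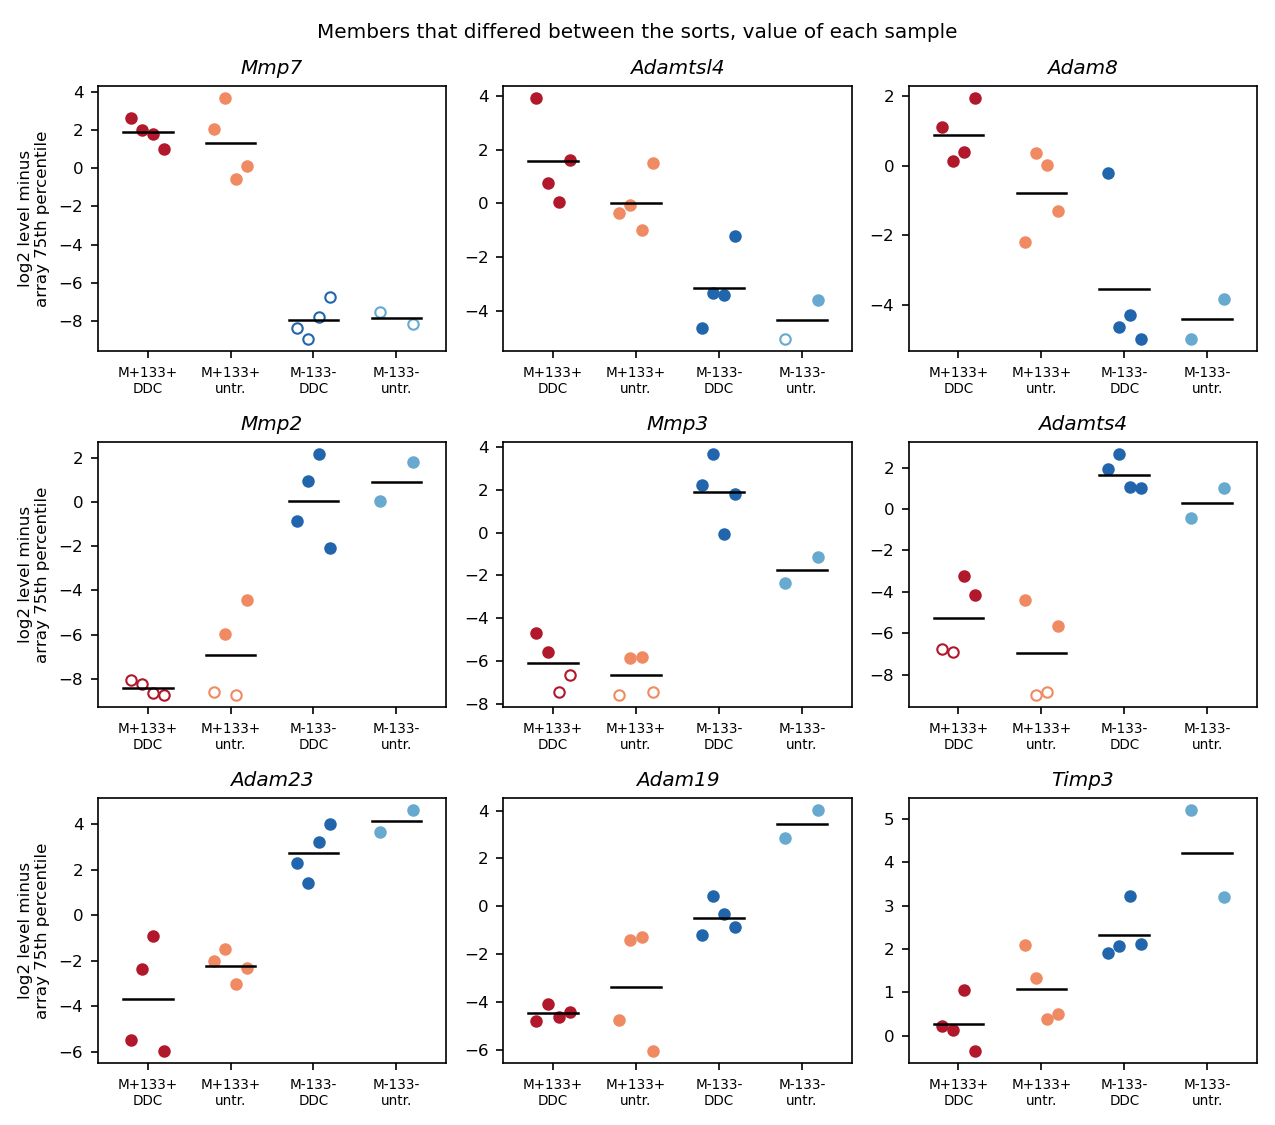
Log2 level of each sample for 9 members called between the sorts, with a black line at the group mean; hollow points are samples in which the probe was not well above background. Mmp7 reads -0.58 or more in M+133+ and -6.75 or less in M-133- samples, and Mmp2, Mmp3, Adamts4, Adam23 and Adam19 have every M-133- sample above every M+133+ sample.

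Among the other MMPs, the probe used for the gelatinase Mmp9 was well above background in 11 of 14 samples. A second Mmp9 probe was well above background in no sample. The probe used was dim, and read -5.07, -6.96, -4.73 and -4.27 in M+133+ DDC, -5.51, -6.59, -6.24 and -4.45 in M+133+ untreated, -6.47, -5.13, -4.26 and -5.17 in M-133- DDC, and -5.42 and -3.99 in M-133- untreated samples. Its groups overlapped in every comparison, and it was called in none. Mmp14, the membrane-type MMP that activates pro-MMP2, had signals above the 75th percentile in every sample. Its levels were 3.27, 1.41, 2.14 and 2.05 in M+133+ DDC, 1.41, 1.54, 1.62 and 1.18 in M+133+ untreated, 1.98, 2.02, 1.67 and 0.79 in M-133- DDC, and 2.2 and 3.6 in M-133- untreated samples. It was called in no comparison, and between the untreated sorts its difference did not pass (log2 difference -1.46, SE 0.58, adjusted p = 0.162).

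Of the 6 membrane-type MMPs, Mmp15 was higher in untreated M+133+ cells (log2 difference 4.48, SE 1.29, adjusted p = 0.0435). The GPI-anchored Mmp17 and Mmp25 and the neuronal Mmp24 were not called. Mmp16, also membrane-bound, read -7.65, -6.83, -9.26 and -7.86 in untreated M+133+ and -2.6 and -5.61 in untreated M-133- cells. Its probe was kept only through untreated M-133- cells, where it was high, so its call is not given as a result, and the difference of -3.79 came to -2.29 without M-133- untreated sample 1. Mmp19, which cuts basement membrane proteins, was well above background on no array of untreated M+133+ cells and was at least 14.3-fold lower there than in untreated M-133- cells (-5.0, SE 1.38, adjusted p = 0.0359). After DDC it was -1.64, -6.35, -7.72 and -6.93 in M+133+ and -2.91, -1.44, -1.65 and -3.32 in M-133- cells (adjusted p = 0.0704). The high M+133+ value was that of sample 1, the M+133+ sample with the most stellate cell and fibroblast marker signal. A link between these was not tested, and Mmp2 was not well above background in that sample. Mmp11 (stromelysin 3), Mmp21, Mmp23 and Mmp28 (epilysin) were called between the sorts in neither treatment.

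Of the 4 inhibitors, Timp3 alone was called between the sorts. Timp3, which binds to the matrix and also blocks ADAM17 and ADAMTS enzymes, was at 0.23, 0.14, 1.05 and -0.36 in M+133+ and 1.92, 2.06, 3.22 and 2.11 in M-133- cells after DDC. In untreated livers it was at 2.08, 1.32, 0.38 and 0.5 in M+133+ and 5.2 and 3.2 in M-133- cells. No M+133+ sample reached the lowest M-133- sample of its treatment. Timp3 was lower in M+133+ cells after DDC (log2 difference -2.06, SE 0.56, adjusted p = 0.0235) and in untreated livers (-3.13, SE 0.68, adjusted p = 0.00955).

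Timp2, which takes part in the activation of pro-MMP2 by Mmp14, was above the 75th percentile in every sample. Its levels were 4.12, 2.76, 3.86 and 3.26 in M+133+ DDC, 3.69, 3.59, 3.09 and 3.92 in M+133+ untreated, 0.6, 3.1, 5.86 and 3.45 in M-133- DDC, and 2.97 and 5.28 in M-133- untreated samples. M-133- samples lay on both sides of the M+133+ samples. Timp4, the inhibitor best known from heart, read 0.18, -1.44, -2.0 and -1.39 in M+133+ DDC, -1.05, -1.62, -1.21 and -2.08 in M+133+ untreated, -2.68, -2.83, -2.54 and -1.53 in M-133- DDC, and 0.35 and -2.09 in M-133- untreated samples. No comparison called Timp2 or Timp4.

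Adam10 and Adam17, the main sheddases of Notch receptors, cadherins, TNF and EGF receptor ligands, passed in no comparison. Adam17 read 2.0, 2.85, 2.68 and 2.41 in M+133+ DDC, 2.83, 2.25, 2.94 and 2.71 in M+133+ untreated, 2.28, 2.44, 1.4 and 2.72 in M-133- DDC, and 2.72 and 2.84 in M-133- untreated samples. The groups overlapped, and M+133+ minus M-133- cells gave 0.27 after DDC (SE 0.36) and -0.1 in untreated livers (SE 0.45). Adam10 read -1.21, -0.92, -0.47 and -0.29 in M+133+ DDC, -1.37, -0.63, -1.52 and -1.89 in M+133+ untreated, -0.37, -1.46, -3.08 and 1.54 in M-133- DDC, and -1.04 and -1.34 in M-133- untreated samples. Its differences between the sorts were 0.12 after DDC (SE 0.8) and -0.16 in untreated livers (SE 0.98), with M-133- DDC samples the most spread.

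Of 17 substrates of these sheddases, 10 were higher and 1 lower in M+133+ cells after DDC, and 6 were higher and 1 lower in untreated livers. Over all genes 5.89% were higher and 6.41% lower after DDC, and 3.42% and 5.19% in untreated livers. After DDC the largest differences were those of Epcam (8.98), Areg (amphiregulin, 7.0), Tnf (5.2), Tgfa (4.75), Btc (betacellulin, 4.13) and Cdh1 (E-cadherin, 3.68). Areg was well above background on 1 of 4 arrays of M-133- cells after DDC, so its size rests partly on background signals. The 1 substrate lower after DDC was Ereg, with a mean level of -3.62 in M+133+ and -0.33 in M-133- cells. In untreated livers Epcam (10.16), Cdh1 (6.21), Cx3cl1 (fractalkine, 3.39), Notch2 (3.24) and Hbegf (3.05) were higher, and Btc, on no array of untreated M-133- cells well above background, was at least 23.2-fold higher (adjusted p = 0.00352). The 1 substrate lower in untreated livers was Tnfrsf1a, with a mean level of 1.33 in M+133+ and 3.49 in M-133- cells. Epcam and Cdh1 are also markers of bile duct epithelium. Among 9 regulators of Adam10 and Adam17, the tetraspanins Tspan15 (5.28, SE 1.08, adjusted p = 0.00439) and Tspan14 (2.35, SE 0.55, adjusted p = 0.00982), both known partners of ADAM10, were higher in M+133+ cells after DDC, and none passed in untreated livers. Median differences after DDC were 2.04 over the substrates and 1.91 over the regulators, against 0.26 over all genes. In untreated livers they were 1.35 and -0.48, against -0.12 over all genes.

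Of the 12 ADAMs with roles outside the germ line, Adam12, Adam19 and Adam23 were lower in M+133+ cells of both treatments. Adam19 (meltrin beta, which can cut neuregulin) read -4.79, -4.06, -4.6 and -4.42 in M+133+ and -1.21, 0.45, -0.31 and -0.84 in M-133- cells after DDC. In untreated livers it read -4.74, -1.39, -1.27 and -6.05 in M+133+ and 2.85 and 4.02 in M-133- cells. The groups of each treatment did not overlap, and Adam19 was lower in M+133+ cells after DDC (log2 difference -3.99, SE 0.95, adjusted p = 0.0118) and in untreated livers (-6.79, SE 1.17, adjusted p = 0.00208). Its other kept probes gave -5.64 and -1.65 after DDC, and -5.32 and -3.58 in untreated livers. Adam23, a non-catalytic ADAM known from neurons as a partner of LGI proteins, was lower after DDC (-6.41, SE 0.99, adjusted p = 0.000559) and in untreated livers (-6.36, SE 1.21, adjusted p = 0.00412). Of its other kept probes, one gave -7.05 after DDC and -5.94 in untreated livers, and another 0.31 and -2.84. Adam12 (meltrin alpha), known from activated stellate cells, was lower after DDC (-5.51, SE 1.36, adjusted p = 0.0142) and in untreated livers (-5.92, SE 1.66, adjusted p = 0.0389). In M+133+ cells it was well above background on 1 of 4 arrays after DDC and on 2 of 5 in untreated livers. The size of its differences thus rests partly on background signals, and under alternatives of the fit it came to as little as -2.76 and -3.23.

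Adam8, a sheddase best known from leukocytes, was higher in M+133+ cells after DDC (log2 difference 4.43, SE 0.98, adjusted p = 0.00738). Its levels there were 1.12, 0.14, 0.4 and 1.95, against -0.21, -4.63, -4.28 and -4.99 in M-133- cells, where sample 1 stood apart. In untreated livers the difference was 3.64 (adjusted p = 0.0817). The mean of 8 T, NK and B cell markers lay between -5.85 and -3.7 over all samples and that of 5 measured neutrophil markers between -7.21 and -4.52, and none of either list was called between the sorts. That of 9 Kupffer cell and macrophage markers ran after DDC from -5.61 to -1.33 in M+133+ and from -3.2 to -1.37 in M-133- cells, with none called, and in untreated livers Csf1r was called higher (5.91, adjusted p = 0.0196) and Clec4f lower (-3.51, adjusted p = 0.0476) in M+133+ cells. Adam33 was higher in untreated M+133+ cells (3.33, SE 0.89, adjusted p = 0.0309), and its other kept probes gave 6.31 and 2.04. The broad sheddase Adam9, the integrin-binding Adam15, the lymphocyte ADAM Adam28, and the non-catalytic Adam11 and Adam22 were not called.

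Of the 17 kept ADAMs known from testis, epididymis or sperm, Adam30 and Adam1b were higher in untreated M+133+ cells, and none was called after DDC. Adam30 was at 1.16, -2.24, -0.58 and -0.12 in untreated M+133+ cells and, on no array well above background, at -7.47 and -7.68 in untreated M-133- cells. That is at least 44.2-fold higher in M+133+ cells (log2 difference 7.13, SE 1.82, adjusted p = 0.0243). After DDC it was -7.77, -1.74, 0.17 and -0.67 in M+133+ and -8.22, -6.9, -3.82 and -8.16 in M-133- cells, and the groups overlapped (4.27, adjusted p = 0.0783). A second Adam30 probe gave 1.38 in untreated livers and -1.36 after DDC, so the probes of Adam30 disagreed. Adam1b was at least 9.48-fold higher in untreated M+133+ cells (4.99, SE 1.4, adjusted p = 0.0381), and its second probe was well above background in no sample. The others were Adam1a, Adam2, Adam3, Adam4, Adam5, Adam6a, Adam6b, Adam7, Adam18, Adam21, Adam24, Adam25, Adam26a, Adam29 and Adam32.

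The ADAMTS proteoglycanases differed in both directions. Adamts4, aggrecanase 1, was at -6.75, -6.93, -3.21 and -4.16 in M+133+ and 1.92, 2.65, 1.07 and 1.01 in M-133- cells after DDC. In untreated livers it was at -4.38, -8.99, -8.82 and -5.63 in M+133+ and -0.42 and 1.0 in M-133- cells. With no overlap in either treatment, it was lower in M+133+ cells after DDC (log2 difference -6.93, SE 1.12, adjusted p = 0.000784) and in untreated livers (-7.25, SE 1.37, adjusted p = 0.00387). Adamts15 (4.55, SE 1.23, adjusted p = 0.0325) and Adamts9 (3.12, SE 0.83, adjusted p = 0.0301) were higher in untreated M+133+ cells. After DDC they differed by -2.21 (adjusted p = 0.185) and 0.06 (adjusted p = 0.973). The other kept Adamts9 probes gave 3.37 and 0.34 in untreated livers. Adamts1, an enzyme induced by inflammation, was above the 75th percentile in every sample and was not called (-1.12, SE 0.42, adjusted p = 0.106 after DDC), but its other kept probe was, when each probe was tested by itself (-1.91, SE 0.53, adjusted p = 0.0273). Not called either were Adamts5, Adamts8 and Adamts20.

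Adamts2, which removes the N-terminal propeptide of procollagens, was lower in M+133+ cells after DDC (log2 difference -4.96, SE 1.1, adjusted p = 0.00715), while its relatives Adamts3 and Adamts14 were not called. Its other kept probes gave -5.15, -4.13 and 0.15. Adamts12, which can cut cartilage oligomeric matrix protein, read -4.53, -6.33, -7.77 and -6.57 in M+133+ and -1.19, 2.44, 1.71 and 1.59 in M-133- cells after DDC. In untreated livers it read -6.14, -8.95, -5.8 and -1.85 in M+133+ and -3.83 and -2.53 in M-133- cells, and there the groups overlapped. It was called after DDC (-7.44, SE 1.26, adjusted p = 0.00115) and not in untreated livers (-2.5, SE 1.55, adjusted p = 0.437), and the interaction, which compares the 2, did not pass (-4.93, SE 2.0, adjusted p = 0.429).

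Adamts13, the von Willebrand factor protease that stellate cells make in the liver, was lower in M+133+ cells after DDC (log2 difference -2.52, SE 0.72, adjusted p = 0.0314). Adamts7, Adamts10, Adamts16, Adamts18 and Adamts19, further secreted ADAMTS enzymes, were not called between the sorts. Of the 5 ADAMTS-like proteins, Adamtsl4, which binds fibrillin 1, was higher in M+133+ cells after DDC (4.7, SE 0.92, adjusted p = 0.00316) and in untreated livers (4.33, SE 1.13, adjusted p = 0.0271). Adamtsl2, which binds a latent TGF-beta binding protein, was lower after DDC (-3.32, SE 0.97, adjusted p = 0.0358). Adamtsl1, Adamtsl3 and Adamtsl5 were not called.

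Markers of other cells moved with these differences. In M+133+ cells all 9 stellate cell and fibroblast markers were lower after DDC and 5 of them in untreated livers, as were 7 of 8 endothelial markers in each, and 7 after DDC and 6 in untreated livers of 8 hepatocyte markers. Their part in the lower members was not tested. When 1 untreated sample was left out, fewer members were called between the untreated sorts: 8, 11, 10 and 8 without M+133+ sample 1, 2, 3 and 4, and 9 and 5 without M-133- sample 1 and 2. Of all genes, 6.11%, 6.89%, 6.7% and 6.76% were called without M+133+ sample 1, 2, 3 and 4, against 8.61% with every sample. Without either M-133- sample that group held 1 sample. Mmp7, Mmp2 and Adam19 were called in each of these leave-outs. Adam23, Adamts4 and Mmp3 were lost only without M-133- sample 2 (adjusted p = 0.0538, 0.0537 and 0.106), and Timp3 only without M-133- sample 1 (adjusted p = 0.207). Of the other 10, the call was lost in 4 of the 14 leave-outs for Adam30, Adamts9, Adamtsl4 and Mmp16, in 5 for Adam12, Adam1b, Adamts15 and Mmp19, in 8 for Adam33 and in 9 for Mmp15. The Adam33 call was lost without any 1 of the 6 untreated samples and without M-133- DDC sample 3 or 4, with a difference of 2.49 (adjusted p = 0.751) without M-133- untreated sample 2, and of 6.31 without either DDC sample, where another probe stood for the gene. Adamts15 differed by 2.73 without M-133- untreated sample 2 (adjusted p = 0.409). After DDC, 12 to 16 members were called when 1 sample was left out, and 11 of the 14 were called each time, with Adamts13, Adamtsl2 and Timp3 as the exceptions. Of all genes, 9.92% to 12.2% were called between the sorts after DDC when 1 DDC sample was left out. With the array slide as a fixed block, 8 members were called after DDC and 12 in untreated livers, against 4.73% and 6.37% of all genes. No slide held both sorts after DDC. On each of the 2 slides that held both untreated sorts all 17 differences kept their direction. The M-133- arrays on these slides were the repeat arrays of M-133- sample 2, beside M+133+ sample 1 on one slide and 4 on the other. They were also part of the fit that called the members, so they are no independent check.

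The authors' deposited table gave signed fold changes for all 72 members, written as M-133- over M+133+. In the authors' deposited table, the 14 members called after DDC and the 17 called in untreated livers all had the same direction as here, and 13 and 15 of them had a false discovery rate under 5%. Timp3 after DDC, and Mmp16 and Timp3 in untreated livers, were outside that rate in the authors' deposited table. Over all 72 members, 14 after DDC and 19 in untreated livers were under that rate, so some of these were not called here. The authors' values belong to the same series, so they are no independent check.

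DDC feeding was then compared with the untreated state within each sort. In M+133+ cells no member was called (limma, 0 of 72), against 0.24% of all genes. The median difference was -0.01 over the members and 0.08 over all genes. DDC and untreated samples did not overlap for 4 members, all lower after DDC, where 4.09% of all genes were higher and 4.03% lower without overlap. These were Adam33, Mmp11, Adamts15 and Adamtsl1. Adam33 was -1.21, -2.74, -1.73 and -4.72 after DDC and 1.09, 0.6, 0.31 and 0.8 in untreated M+133+ cells (log2 difference -3.3, SE 0.73, adjusted p = 0.083), and its other kept probes gave -4.18 and -1.46. Mmp11 was -5.95, -2.83, -2.32 and -7.99 after DDC and -0.82, -0.55, -0.57 and -1.78 in untreated M+133+ cells (-3.84, SE 1.48, adjusted p = 0.304). None of the 4 passed the test, and for Mmp7 the groups overlapped (0.56, SE 0.88, adjusted p = 0.868).

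A second probe of Adamts16, singled out after its values were seen, behaved unlike the brighter one that stood for the gene. It lies on chromosome 13 (mm9, 70906800 to 70906859, minus strand) and read -7.96, -8.89, -9.03 and -8.75 after DDC, on 0 of 4 arrays well above background, and -0.87, -1.96, -0.15 and -1.27 in untreated M+133+ cells, on all 5 arrays. In M-133- cells it was on no array well above background, with -8.51, -9.18, -8.23 and -8.53 after DDC and -7.75 and -7.59 in untreated livers. The untreated M+133+ samples thus stood apart from all others. It was at least 40.4-fold lower after DDC than in untreated M+133+ cells, and at least 28.8-fold higher in untreated M+133+ than in untreated M-133- cells. Since it was kept only through untreated M+133+ cells, where it was high, these are descriptions with no test. The brighter probe (70867148 to 70867207 on the same chromosome and strand) read -4.0, -5.37, -0.99 and -4.3 after DDC and -1.11, -4.65, -0.04 and -1.73 in untreated M+133+ cells, and these overlapped (-1.78, SE 1.06, adjusted p = 0.536). Which transcripts each probe reads was not tested.

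In M-133- cells no member was called for DDC either (limma, 0 of 72), against 0.957% of all genes. The untreated group held 2 samples, which limits this comparison. The median of all genes depended on the scaling, at -0.36 as used here, 0.06 after quantile normalization and -0.77 after normexp background correction, and the members' median was -0.46, 0.2 and -0.87. DDC and untreated samples did not overlap for 9 members that were higher after DDC and 2 that were lower, where 7.13% of all genes were higher and 13% lower without overlap. The 9 were Timp1, Mmp3, Mmp23, Adamts2, Adamts4, Adamts9, Adamts12, Adamts13 and Adamts15, and the 2 were Adam19 and Mmp14.

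Timp1, the inhibitor known to rise in fibrotic liver, read -0.71, 1.87, -0.17 and -1.75 after DDC and -2.98 and -2.93 in untreated M-133- cells (log2 difference 2.76, SE 0.89, adjusted p = 0.182). In M+133+ cells it read -1.28, -2.13, -1.33 and -2.43 after DDC and -2.91, -2.85, -2.61 and -1.93 in untreated livers (0.78, SE 0.72, adjusted p = 0.734). All 4 M-133- DDC samples lay above both untreated ones, while in M+133+ cells the groups overlapped, and neither test passed. A second, dimmer Timp1 probe gave 3.66 in M-133- and 1.58 in M+133+ cells. Mmp3 differed by 3.65 (SE 1.07, adjusted p = 0.143) and Adamts12 by 4.32 (SE 1.55, adjusted p = 0.235) in M-133- cells.

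Adamts9 read 1.33, 2.51, 1.35 and 0.57 after DDC and -0.89 and -2.94 in untreated M-133- cells (log2 difference 3.36, SE 0.83, adjusted p = 0.076), the smallest adjusted p of a member in this comparison. Without M+133+ DDC sample 4 another of its probes was the brightest and stood for the gene, and it was called (4.22, adjusted p = 0.0219). Adamts15 read 3.04, 1.21, 0.79 and -1.75 after DDC and -2.01 and -5.64 in untreated M-133- cells (4.65, SE 1.23, adjusted p = 0.103), and was called without M-133- DDC sample 4 (5.51, adjusted p = 0.0337). Adam19 (-3.91, SE 1.17, adjusted p = 0.15) and Mmp14 (-1.29, SE 0.58, adjusted p = 0.37) did not pass, and the other kept Adam19 probes gave 0.21 and -2.27. In M-133- cells the mean of the stellate cell and fibroblast markers was 3.5 to 4.76 after DDC and 1.23 to 1.57 in untreated livers, with 1 of the 9 (Des) called higher. That of the bile duct markers was -2.27 to -0.7 after DDC and -3.95 to -2.66 in untreated livers, with Spp1 (8.81) and Sox9 (3.36) of the 8 called higher. That of the endothelial markers was 0.35 to 2.91 after DDC and 4.33 to 4.39 in untreated livers. Of 6 proliferation markers, Cdk1 (4.06) was called higher after DDC in M-133- cells. In M+133+ cells 3 of the same 6 were called higher after DDC, Mki67 (2.15), Ccna2 (4.1) and Aurkb (5.98). The part of all these markers in the members' differences was not tested.

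**Figure D4:**
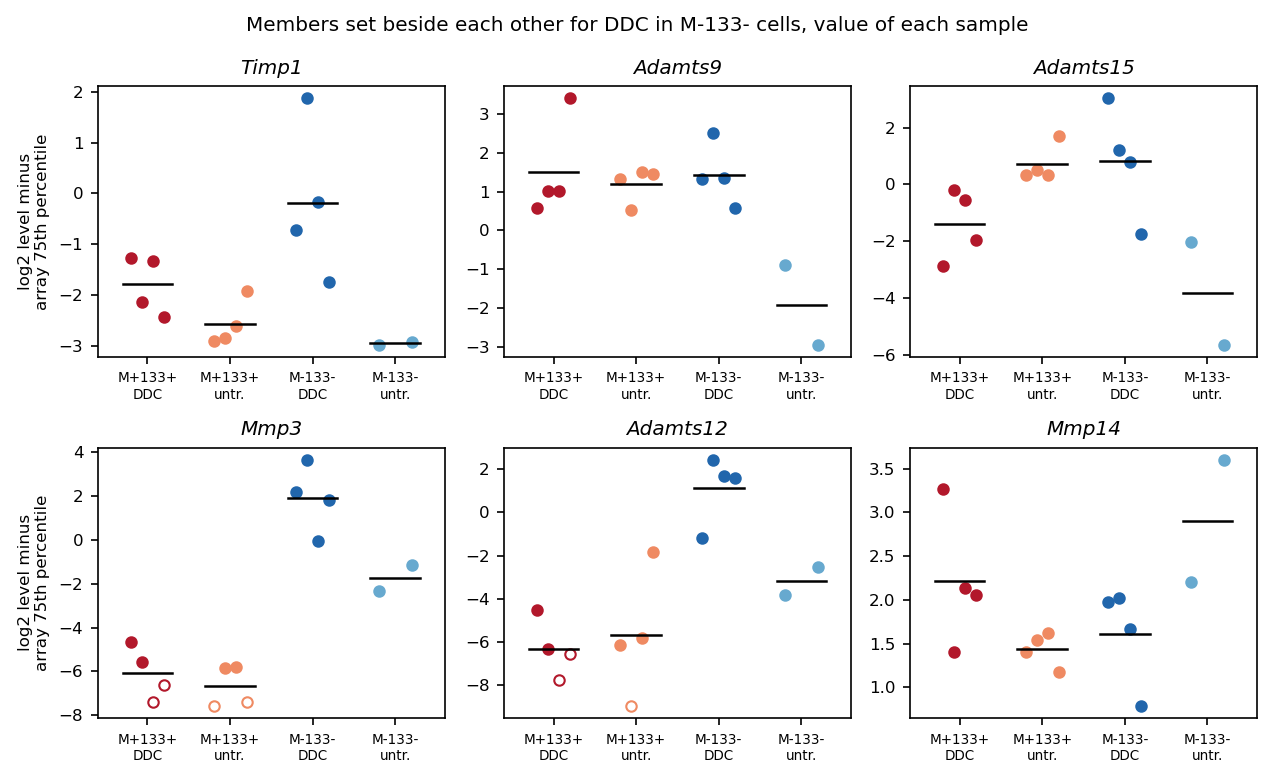
Log2 level of each sample for 6 members, with a black line at the group mean; hollow points are samples in which the probe was not well above background. In M-133- cells every DDC sample of Timp1, Adamts9, Adamts15, Mmp3 and Adamts12 lies above both untreated samples, and every DDC sample of Mmp14 lies below them.

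The interaction of sort and DDC, which tests whether the difference with DDC was the same in both sorts, called no member (limma, 0 of 72), against 0.257% of all genes. The largest was that of Adamts15 (log2 difference -6.76, SE 1.59, adjusted p = 0.119). In M+133+ cells Adamts15 read -2.86, -0.2, -0.55 and -1.95 after DDC and 0.35, 0.5, 0.34 and 1.7 in untreated livers, so that DDC samples were the lower ones there and the higher ones in M-133- cells. It was called without M-133- DDC sample 4 (-7.62, adjusted p = 0.0453).

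Genes that act around these enzymes were described from lists. Of 11 genes of the plasmin cascade and other inhibitors, 1 was higher and 3 lower in M+133+ cells after DDC, and 1 higher and 4 lower in untreated livers. In both this list and the next, the calls are to be read against 12.3% of all genes called after DDC and 8.61% in untreated livers. Plaur, the urokinase receptor, was higher after DDC (3.74) and in untreated livers (4.64). The hepatocyte products Plg (plasminogen, -5.2 and -4.7) and Serpinf2 (alpha-2-antiplasmin, -6.17 and -5.67) and the inhibitor Tfpi2 (-5.62 and -5.52) were lower in both, and the protease inhibitor Pzp in untreated livers (-3.9).

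Of 11 activators and docking partners, 1 was higher and 3 lower in M+133+ cells after DDC, and 2 were higher and 2 lower in untreated livers. Cd44, which can hold MMP7 and MMP9 at the cell surface, was higher after DDC (3.93) and in untreated livers (4.18). The matricellular Sparc was lower in both (-1.82 and -1.77), the proprotein convertase Furin (-1.03) after DDC, and the convertase Pcsk6 (-4.33) in untreated livers. Thbs2, a matricellular thrombospondin, was well above background on no array of M+133+ cells after DDC and was at least 250-fold lower there (adjusted p = 0.000237). Lcn2, whose product binds MMP9, was higher in untreated M+133+ cells (5.54). It was the 1 gene of this list called for DDC in M-133- cells (9.18, SE 1.02, adjusted p = 0.000454), with a mean level of 2.76 ± 0.39 after DDC (SD, n = 4) and -6.42 ± 1.63 in untreated livers (SD, n = 2). In untreated M-133- cells Lcn2 was well above background on 1 of 3 arrays. The size of both its differences thus rests partly on background signals.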

How the data were processed

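Sorted cells went into Trizol LS, and their RNA was made into amplified cDNA with Cy3 for 1-colour Agilent arrays, per the labels' protocols. The deposited files give a processed intensity per spot from Agilent Feature Extraction 10.5.1.1, with background subtracted and no scaling across arrays, as per the file headers. Probe positions are on mm9. A table deposited by the authors holds signed fold changes and false discovery rates written in percent, each treated here as a score. The submitters' processing notes name limma, with no role given. That table was only set beside the fit.

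Each array's 75th percentile was subtracted from its log2 processed signals. Spots marked as outliers were left out, repeat spots were averaged, and then the 2 arrays of each of 2 samples (M+133+ untreated 1 and M-133- untreated 2). A probe counted as well above background on an array if a share of at least 0.5 of its spots did, and in a sample if 1 of its arrays did. Probes passing in a share of 0.5 or more of any 1 group's samples were kept, and the brightest kept probe stood for its gene. Members had 130 probes, of which 111 were kept. One model of the 4 groups was fitted to 14 samples with limma 3.58.1 in R 4.3.3, using eBayes with a trend on intensity. Tests were two-sided, calls are Benjamini-Hochberg adjusted p under 0.05 over 24127 genes, and SE is the moderated standard error. Where a member was well above background on no array of a group, the fold is given as "at least", against the higher of its own signal there and the dimmest signal well above background on each array. The fit was tested on simulated data.

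Members, role lists, context lists and markers were chosen with earlier results of these data known. Every kept member is named. Values of every sample are given for the TIMPs, Mmp2, Mmp7, Mmp9, Mmp14, Adam10 and Adam17 and for up to 5 called members per comparison with the largest differences, and other members shown this way were picked after seeing their values. The planned split of ADAMs by their zinc-binding motif was replaced by textbook roles, since protein sequences were not used here. Alternatives were the scaling, background correction, filter, probe choice, intensity trend, repeat arrays, slide or replicate number as a block, the groups fitted, and leaving out each sample. Testing each probe by itself was added after the data were seen. The number of arrays limits the precision.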

Additional observations from a re-analysis of the deposited data

Results flagged for a closer look

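Among 29 members, in 87 groups of 4 samples, 7 groups held a sample far from the other 3, where chance gives about 1 in 20. In M-133- DDC cells, Adam8 was -0.21 in sample 1, with the next sample at -4.28, and Timp3 was 3.22 in sample 3, with the next at 2.11. In M+133+ DDC cells, sample 4 was low for Adamts13 (-7.27, next -5.25) and high for Adamts9 (3.40, next 1.01). In M+133+ untreated cells, sample 2 was high for Mmp15 (1.75, next -1.84) and low for Adamts9 (0.52, next 1.33), and sample 4 was high for Adamts15 (1.70, next 0.50). Without the sample concerned, the call of Adam8 after DDC held, that of Timp3 and Adamts13 after DDC did not, and that of Mmp15 and Adamts15 in untreated livers did not.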

How the results depend on the processing

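No called member changed direction in any of the 28 alternatives of the fit by gene. Probe by probe, however, another kept probe of Adam23 (0.31) and another of Adamts2 (0.15) ran against the called direction after DDC. Between the untreated sorts, 17 members were called, 9 with normexp background correction, and 5 to 18 when 1 sample was left out. Normexp correction left 7.47% of all genes called there, in place of 8.61%. After DDC, 14 members were called, 8 with the slide as a fixed block, and 12 to 16 when 1 sample was left out. That slide block left 4.73% of all genes called after DDC, in place of 12.3%. For DDC in M+133+ cells the count was 0, and 1 (Adamts16) with the mean of the kept probes or with each kept probe tested by itself, an alternative chosen after seeing the data. The Adamts16 probe behind these calls was kept only through untreated M+133+ cells, where it was high, so they support no DDC response. For DDC in M-133- cells it was 0, 1 with normexp correction (Adam19), and 0 to 1 when 1 sample was left out. For the interaction it was 0, 1 (Adamts16) with each kept probe tested by itself, and 0 to 1 when 1 sample was left out. Deviations from the group means were correlated between samples of 2 groups with the same replicate number. These correlations were -0.061 to 0.075 by the number of the description and -0.014 to 0.112 by that of the title. They cannot show whether samples share an animal, since the cells differ and the deviations of a group of 2 samples mirror each other. Numbers of the title recur in both sorts, and a shared origin was not tested. With the replicate block by the description number, 9 members were called between the untreated sorts and 13 after DDC (6.37% and 11.1% of all genes). With the replicate block by the title number as a fixed term these were 5 and 12 (3.27% and 9.81% of all genes). As a random term they were 17 and 14 (9.5% and 14% of all genes). With the replicate block no member was called in the other comparisons in which it was fitted. The cause of these changes was not tested. By scaling, calls between the untreated sorts were 8 higher and 9 lower as reported and 2 and 7 with normexp correction. Called in each of the 28 alternatives of the fit by gene were 3 of the 17 members in untreated livers (Adam19, Mmp2 and Mmp7) and 8 of the 14 after DDC (Adam12, Adam19, Adam23, Adamts12, Adamts4, Mmp2, Mmp3 and Mmp7). Of 116 group levels of 29 members, 4 moved by more than the spread of the group under quantile normalization, 34 under normexp correction, 26 under the mean of the probes and 0 under either filter.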
